A study of Chlamydomonas reinhardtii with 4 samples.

Results

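The regions described here are shared H3K27ac regions of Chlamydomonas reinhardtii, a unicellular green alga, whose peaks were wider in the DNMT1 knockout than in wild type (WT) in both of the strains profiled. There are 300 of them among 15521 merged regions of the 4 peak lists. Peaks overlapping by at least 1 bp were merged, and 13909 regions of chromosomes 1 to 17 with exactly 1 peak in each list were ranked. For each region the width ratio was taken within each strain, dnmt1 over WT, and the regions were ordered by the lower of the 2 ratios on the log2 scale. The 300 with the highest value are called widened regions below. They were chosen by their measured widths, so every dnmt1 to WT difference of their peaks is given as a description, with no test. The comparison within CC-5155 (dnmt1 mt+ over WT mt+) is called the mt+ pair and that within CC-5325 (dnmt1 mt− over WT mt−) the mt− pair.

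The groups had 1 ChIP-seq library each. They were the DNMT1 knockout of strain CC-5155 (dnmt1 mt+), the DNMT1 knockout of strain CC-5325 (dnmt1 mt−), CC-5155 WT (WT mt+) and CC-5325 WT (WT mt−). All cells were in the vegetative stage, grown in acetate-containing medium, and were precipitated with the same anti-H3K27ac antibody. Strain and mating type changed together, and the labels do not say how the knockouts were made or whether each is 1 clone. Each group has a single library, so the replicate error within a strain and genotype is unknown. No test was made between genotypes across the strains, since the regions were chosen by that contrast.

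Acetylation of histone H3 at lysine 27 is laid down by histone acetyltransferases and removed by deacetylases, and in many eukaryotes it marks nucleosomes flanking active promoters and enhancers. DNMT1-family enzymes copy cytosine methylation onto newly made DNA strands, and dense cytosine methylation is usually found in chromatin poor in this mark. A peak in these lists is the stretch over which reads exceeded the control beyond the authors' threshold. Its width is the length of that stretch, and its fold enrichment is the authors' ratio of reads over control at the highest point, the summit.

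The dnmt1 lists held 14986 (mt+) and 15323 (mt−) peaks, and the WT lists 14990 (mt+) and 15065 (mt−). Median peak width was 805 bp in dnmt1 mt+, 818 bp in dnmt1 mt−, 814 bp in WT mt+ and 826 bp in WT mt−. No counts were given, so the depth of the libraries is unknown. Width and fold enrichment depend on depth and on the control, and the labels say that the input was shared with another data set. Over the 13909 ranked regions the median log2 width ratio was -0.017 in the mt+ pair and 0.0022 in the mt− pair, so list-wide shifts of width were small. The median log2 fold enrichment ratio over the same regions was -0.06 in the mt+ pair and 0.12 in the mt− pair.

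A small number of regions were far wider in both knockouts, and the size of the difference dropped quickly down the ranking. The lower of the 2 ratios was 5.91-fold at rank 1, 2.25-fold at rank 10, 1.90-fold at rank 20, 1.39-fold at rank 50 and 1.22-fold at rank 100, and it had dropped to 1.10-fold at rank 300. Of the widened regions, 17 were at least 2-fold wider in both knockouts (0.122% of all ranked regions), 38 at least 1.5-fold (0.273%) and 85 at least 25% wider (0.611%). The other 215 were at least 1.10-fold but under 25% wider in the lower pair. The 85 had median widths of 377 bp in WT mt+ and 424 bp in WT mt−, and with peaks of at least 400 bp in all 4 lists only, 36 regions in place of 85 were at least 25% wider.

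The same ranking was made for the crossed pairs, dnmt1 mt− over WT mt+ and dnmt1 mt+ over WT mt−. It gave nearly the same curve, with 19 regions at least 2-fold wider in both pairs (0.137%), 35 at least 1.5-fold (0.252%), 84 at least 25% wider (0.604%) and a value of 1.10-fold at rank 300. Both rankings are built from the same 4 libraries, and for each region the log2 ratios of the 2 pairings have the same sum, so this is no second measurement. The widened regions had a median lower log2 ratio of 0.17 in the crossed pairs (lowest -0.55, highest 2.57) and 0.22 within strains. In 272 of the 300, both dnmt1 widths exceeded both WT widths, as they did in 14.6% of all ranked regions, and this held for 38 of the 38 regions at or above 1.5-fold. These counts follow in large part from the choice by width, so nothing is read from them.

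The reverse ranking, for regions narrower in both knockouts, had a much lower top and the same tail. No ranked region was at least 2-fold narrower in both knockouts (0%), 1 was at least 1.5-fold narrower (0.00719%) and 41 were at least 20% narrower (0.295%). Its highest value was 1.75-fold, against 5.91-fold for widening. At rank 200 the values were 1.13-fold for widening and 1.14-fold for narrowing, and at rank 300 they were 1.10-fold and 1.11-fold. The lower part of the widened set thus lay no higher than regions ranked the other way, and the asymmetry between directions was in about the first 100 ranks.

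**Figure D1:**
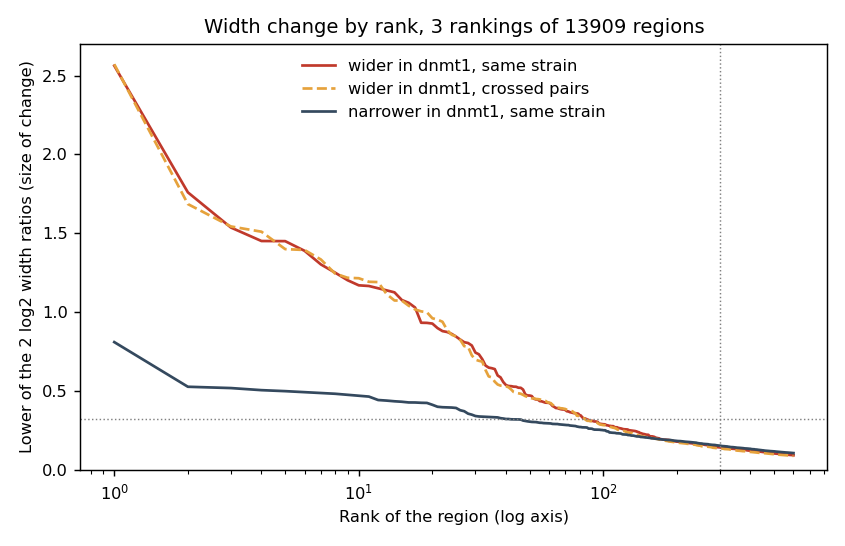
The lower of the 2 log2 width ratios (y axis) is plotted against rank (log x axis) for regions wider in dnmt1 within strains, wider in dnmt1 in the crossed pairs and narrower in dnmt1 within strains. Dotted lines mark rank 300 and a width larger by 25%. The widening curves start at 2.56 and 2.57, the narrowing curve at 0.81, and all 3 lie between 0.13 and 0.16 at rank 300.

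The leading widened region was on chromosome 9, 4348821 to 4350223. Its peak was 1394 bp wide in dnmt1 mt+ and 1403 bp in dnmt1 mt−, against 236 bp in WT mt+ and 220 bp in WT mt−. In both WT libraries the peak was a narrow one of low strength, with fold enrichments of 2.93 (WT mt+) and 2.80 (WT mt−), and in the knockouts it had 6.12 (dnmt1 mt+) and 6.32 (dnmt1 mt−). Most of the added length was on the side of lower coordinates, 976 bp in the mt+ pair and 981 bp in the mt− pair, against 182 and 202 bp on the other side. The dnmt1 summit lay outside the WT peak in both strains, 664 bp from the WT summit in the mt+ pair and 657 bp in the mt− pair.

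Next came a pair on chromosome 1. The region at 1254232 to 1255308 was 1077 bp (dnmt1 mt+) and 1023 bp (dnmt1 mt−) wide, against 318 bp (WT mt+) and 290 bp (WT mt−). The region at 1093728 to 1094594 was 812 and 827 bp wide in dnmt1 mt+ and dnmt1 mt−, against 235 and 285 bp in WT mt+ and WT mt−. In dnmt1 both extended past the WT peak on either side by similar lengths, for example by 343 bp at the lower and 416 bp at the upper edge of the first in the mt+ pair.

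On chromosome 12 the region at 6721022 to 6722394 measured 1325 bp in dnmt1 mt+ and 1373 bp in dnmt1 mt−, against 484 bp in WT mt+ and 502 bp in WT mt−. On chromosome 7 the region at 3173707 to 3174606 measured 831 and 900 bp in dnmt1 mt+ and dnmt1 mt−, against 304 and 285 bp in WT mt+ and WT mt−. This region was weak in all 4 libraries, with fold enrichments of 2.57 and 2.91 in the knockouts (mt+ and mt−) and of 2.06 and 1.91 in WT. The region of chromosome 2 at 5908134 to 5908967 was 830 and 731 bp wide in dnmt1 mt+ and dnmt1 mt−, against 278 and 279 bp in WT mt+ and WT mt−, with little difference of fold enrichment (4.07 and 4.28 in the knockouts, 3.93 and 3.61 in WT). In each of these leading regions even the narrower dnmt1 peak was wider than both WT peaks.

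Several chromosomes held more than 1 of the next regions. On chromosome 14, rank 7 (2203358 to 2204850) was 1493 and 1408 bp wide in dnmt1 mt+ and dnmt1 mt−, against 605 and 566 bp in WT mt+ and WT mt−. Rank 15 (2192772 to 2193819), its neighbour, was 1048 and 990 bp wide in dnmt1 mt+ and dnmt1 mt−, against 470 and 469 bp in WT mt+ and WT mt−. On chromosome 17, rank 8 (6061203 to 6062255) had 976 and 1034 bp in dnmt1 mt+ and dnmt1 mt−, against 410 and 357 bp in WT mt+ and WT mt−, and rank 16 (6198526 to 6199485) had 932 and 941 bp in the knockouts, against 447 and 420 bp in WT. At all 4 the widths of the dnmt1 libraries lay close together and well above those of both WT libraries.

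On chromosome 10, rank 9 (3748593 to 3749997) was 1405 and 1340 bp wide in dnmt1 mt+ and dnmt1 mt−, against 586 and 582 bp in WT mt+ and WT mt−, and rank 17 (3622833 to 3623595) was 762 and 725 bp wide in the knockouts, against 358 and 355 bp in WT. On chromosome 7, rank 10 (3137430 to 3138305) was 797 and 863 bp wide in dnmt1 mt+ and dnmt1 mt−, against 354 and 349 bp in WT mt+ and WT mt−. Its neighbours at rank 13 (3127189 to 3127994) and rank 20 (3191774 to 3193004) were on the same stretch. The first measured 782 and 795 bp in the knockouts (mt+ and mt−), against 271 and 361 bp in WT, and the second 1217 and 1201 bp in the knockouts, against 626 and 631 bp in WT. The remaining ones were single regions of their chromosomes, except rank 14 on chromosome 1 (1244345 to 1245290), with 946 and 871 bp in dnmt1 mt+ and dnmt1 mt− against 317 and 399 bp in WT mt+ and WT mt−.

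Rank 11 on chromosome 15 (2657122 to 2658791) was the widest of the 20 in the knockouts, with 1614 and 1670 bp in dnmt1 mt+ and dnmt1 mt−, against 719 and 583 bp in WT mt+ and WT mt−. Rank 12 on chromosome 3 (7168143 to 7168900) had 758 and 702 bp in the knockouts, against 341 and 270 bp in WT, and rank 18 on chromosome 16 (3354016 to 3354802) had 762 and 787 bp in the knockouts, against 371 and 412 bp in WT. Rank 19 on chromosome 4 (983917 to 984470) was the narrowest in the knockouts, with 504 and 554 bp there, against 264 and 252 bp in WT. Over ranks 1 to 20, on 12 chromosomes, dnmt1 widths ran from 504 to 1670 bp and WT widths from 220 to 719 bp. In every one of these 20 regions both dnmt1 peaks were wider than both WT peaks, and in 17 both WT peaks lay wholly within the dnmt1 peak of their strain, as in 6.36% of all ranked regions, a count that follows in large part from the choice by width.

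**Figure D2:**
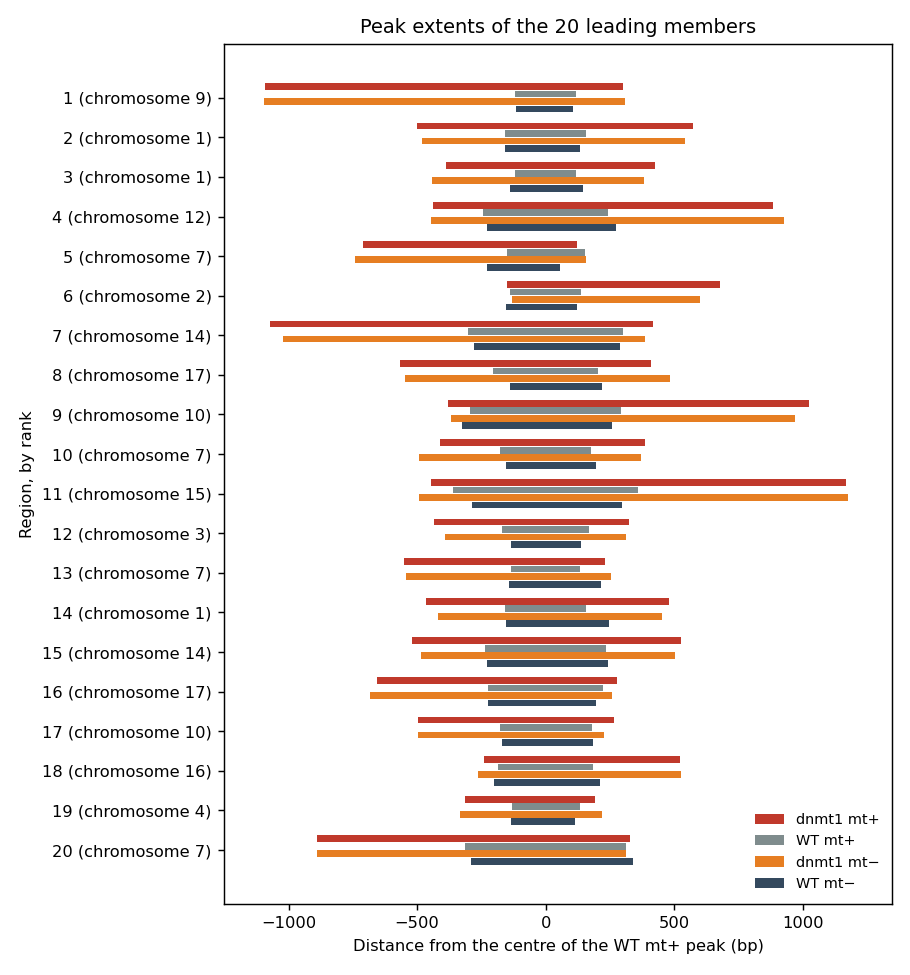
Extents of the peaks of the 20 leading regions, 1 bar per library, as distance in bp from the centre of the WT mt+ peak (x axis), with rank and chromosome on the y axis. Both dnmt1 bars reach past the WT bars on the same side in most regions, as at rank 1, where the lower edge lies 976 bp farther out in the mt+ pair and 981 bp in the mt− pair.

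The strongest gain in length outside these 20 was at chromosome 12, 6666318 to 6669449, a broad region at rank 39. It was 3064 bp wide in dnmt1 mt+ and 3112 bp in dnmt1 mt−, against 2072 bp in WT mt+ and 2114 bp in WT mt−, and 880 and 905 bp were added at the lower edge in the mt+ and mt− pairs. In bp only the leading region, with 1158 and 1183 bp, gained more in both strains. Over all widened regions the median gain was 114 bp in the mt+ pair (interquartile range 81.8 to 197) and 136 bp in the mt− pair (86.8 to 236). The summed gain was 54.1 kb in the mt+ pair and 59.1 kb in the mt− pair, of which the 85 regions at least 25% wider held 29.3 and 30.9 kb. Over all ranked regions the summed width difference was -128 kb in the mt+ pair and 58.1 kb in the mt− pair, so there was no net widening in both strains.

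The rule used the total width and not the side on which a peak grew, and the side was often the same in both strains. The larger extension was on the same side in the 2 strains in 202 of 297 widened regions (68.0%, exact 95% binomial interval 62.4 to 73.3), leaving out 3 regions with equal sides. Among all ranked regions the same was true of 51.1% (6990 of 13692). The share was 86.5% (32 of 37, interval 71.2 to 95.5) for regions at or above 1.5-fold, 71.7% (33 of 46) 25% to 1.5-fold wider and 64.0% (137 of 214, 57.2 to 70.4) under 25% wider. In the ranking of narrowed regions the larger change was on the same side in 59.1% (176 of 298, 53.2 to 64.7). For regions at least 20% narrower in both knockouts it was 68.3% (28 of 41, 51.9 to 81.9). That interval includes the 71.7% of regions 25% to 1.5-fold wider, so at this size widening and narrowing are not told apart. The edges that give the side also set the ranked width. These intervals cover counting error only and treat regions as independent. The within-strain comparisons shared no ChIP library, but the labels do not say which library used which input, and its part in the agreement was not tested.

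The places of both edges and of the summit were also counted. Both edges lay farther out in both knockouts in 182 of the 300 regions (60.7%, against 5.79% of all ranked regions), and in 31 of the 38 at or above 1.5-fold. The edges set the width used for the ranking, so nothing is read from this count. Among the 85 regions at least 25% wider, more than 80% of the added length lay on a single side in 45 regions in the mt+ pair and in 39 in the mt− pair. No share over all ranked regions was taken beside these 2 counts, so nothing is read from them. The dnmt1 summit lay outside the WT peak in both strains in 5 regions, and these were all such regions of the 13909 ranked (0.0359%). They were ranks 1, 4, 8, 11 and 27, and in the last, at chromosome 7, the summits lay 175 bp (mt+) and 153 bp (mt−) apart. In 1 strain alone the dnmt1 summit lay outside the WT peak in 4 more regions in the mt+ pair and 5 more in the mt− pair. In all it did so in 9 of the 300 in the mt+ pair, against 18 of all ranked regions (0.129%). In the mt− pair it did so in 10, against 14 of all (0.101%). A summit can lie outside the WT peak only where the dnmt1 peak reaches past it, so these counts are tied to the choice by width. Over all 300 the median distance between dnmt1 and WT summits was 37.5 bp in the mt+ pair and 34.5 bp in the mt− pair, close to the 33 and 34 bp over all ranked regions.

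Widths were also compared between the strains within a genotype. For the 85 regions at least 25% wider, the median absolute log2 ratio of widths between strains was 0.11 for the dnmt1 libraries and 0.16 for the WT libraries, beside a median lower dnmt1 to WT ratio of 0.53, which the ranking had made large. Across all 13909 ranked regions, however, the log2 width ratios of the 2 strains were only weakly related (Pearson r 0.15, Spearman rho 0.04, given as a description, since all regions share the same 4 libraries). Their SD was 0.17 in each strain, and it was 0.17 between the 2 dnmt1 libraries and 0.16 between the 2 WT libraries. Over all regions the spread of width was therefore as large between libraries of 1 genotype as between genotypes. Of the widened regions, 35 were at least 25% wider in the mt+ pair alone, 52 in the mt− pair alone and 128 in neither. Of all ranked regions, 252 (1.81%) were so in the mt+ pair and 416 (2.99%) in the mt− pair.

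**Figure D3:**
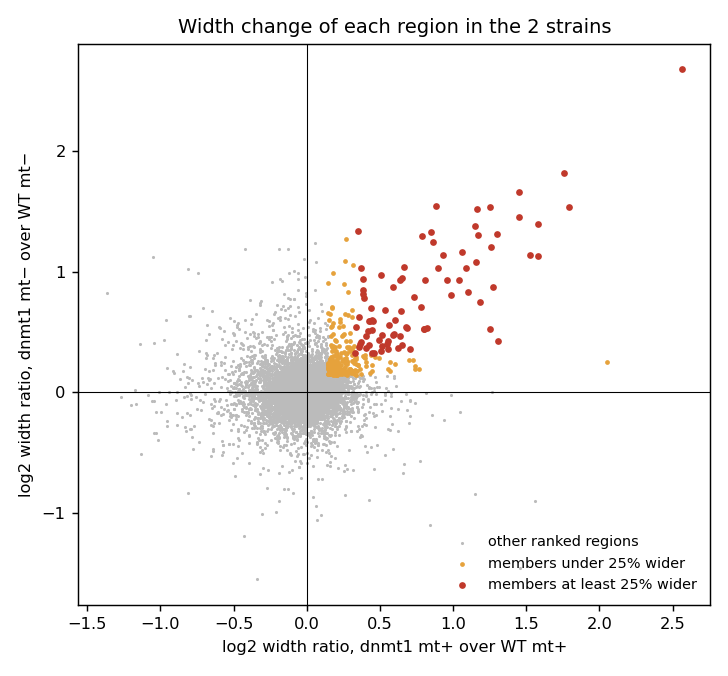
The log2 width ratio in the mt+ pair (x axis) against that in the mt− pair (y axis) for each ranked region. The 85 regions at least 25% wider stretch up and to the right of the cloud to 2.56 and 2.67, with no such arm to the lower left, where 41 regions are at least 20% narrower in both.

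Widened regions were narrow and weak in WT. Their median width was 661 bp in dnmt1 mt+ and 707 bp in dnmt1 mt−, against 520 bp in WT mt+ and 530 bp in WT mt−. Over all ranked regions the medians were 817 and 839 bp in dnmt1 mt+ and dnmt1 mt−, and 828 and 840 bp in WT mt+ and WT mt−. Widths among the 300 ran from 242 to 3112 bp in the knockouts and from 211 to 2114 bp in WT. A ratio of narrow widths is more easily large, and the 41 regions at least 20% narrower in both knockouts were also weak, with median percentiles of −log10 q among ranked regions at 7.16 (WT mt+) and 5.79 (WT mt−).

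The regions with the strongest widening ranked much higher by peak strength within the knockout lists than within the WT lists, and the medians of the others were in the lower part of all 4. Peak strength and width come from the same reads, so this difference is tied to the choice by width. For the 38 regions at or above 1.5-fold, the median percentile of −log10 q among ranked regions was 45.9 in dnmt1 mt+ and 43.0 in dnmt1 mt−, against 7.78 in WT mt+ and 9.46 in WT mt−. For the 47 regions 25% to 1.5-fold wider it was 11.1 and 9.42 in dnmt1 mt+ and dnmt1 mt−, against 5.17 and 5.66 in WT mt+ and WT mt−. For the 215 under 25% wider it was 19.5 and 19.8 in the knockouts, against 14.6 and 13.1 in WT. A −log10 q under 10 was found at 34 of the 300 in dnmt1 mt+ and 19 in dnmt1 mt−, against 53 in WT mt+ and 35 in WT mt−. The share of all ranked regions under it was 3.53% in dnmt1 mt+ and 1.68% in dnmt1 mt−, against 2.24% in WT mt+ and 1.77% in WT mt−.

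Fold enrichment at the summit was higher in both knockouts in 176 of the 300 widened regions (28.8% of all ranked regions), and lower in both in 23 (19% of all). Both dnmt1 values exceeded both WT values in 142 regions (20.5% of all), and fold enrichment was at least 25% higher in both knockouts in 53 (1.71% of all). Taken by size, both dnmt1 values exceeded both WT values in 31 of 38 regions at or above 1.5-fold, 25 of 47 25% to 1.5-fold wider and 86 of 215 under 25% wider. The median log2 fold enrichment ratio at or above 1.5-fold was 0.50 in the mt+ pair and 0.59 in the mt− pair. Under 25% wider it was 0.06 and 0.24 in the same order, and over all ranked regions -0.06 and 0.12. Width and summit height come from the same reads, so these counts are part of the same contrast. The median of the lower log2 ratio over the 300 was 0.04, against -0.12 over all ranked regions, and it was -4.6e-05 with peaks of at least 400 bp and -0.0073 with 600 regions.

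The 5 widened regions with the largest lower ratio of fold enrichment were ranks 8, 11, 1, 14 and 118. At chromosome 17, 6061203 to 6062255, the values were 6.58 in dnmt1 mt+ and 7.49 in dnmt1 mt−, against 2.17 in WT mt+ and 2.45 in WT mt−. At chromosome 15, 2657122 to 2658791, they were 8.67 and 8.70 in dnmt1 mt+ and dnmt1 mt−, against 3.71 and 2.97 in WT mt+ and WT mt−. The third of these regions is the leading one on chromosome 9. At chromosome 1, 1244345 to 1245290, the values were 6.37 and 5.97 in dnmt1 mt+ and dnmt1 mt−, against 2.65 and 3.08 in WT mt+ and WT mt−. At chromosome 15, 2772189 to 2773223, they were 5.95 and 5.78 in the knockouts, against 2.29 and 3.05 in WT, although the width ratios were only 1.65 (mt+) and 1.20 (mt−). By −log10 q these 5 regions stood at percentiles of 57.3 to 95.6 in dnmt1 mt+ and 40.9 to 94.6 in dnmt1 mt−, against 1.98 to 13.4 in WT mt+ and 4.13 to 9.63 in WT mt−.

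The widened regions that were strongest in the knockouts were others, except for rank 11, which stood in both lists. Ranked by the lower dnmt1 fold enrichment, the first 5 were ranks 208, 11, 279, 184 and 53. At rank 208, chromosome 2, 8565485 to 8566792, fold enrichment was 8.96 and 9.13 in dnmt1 mt+ and dnmt1 mt−, against 8.57 and 8.62 in WT mt+ and WT mt−, with widths of 1288 and 1217 bp in the knockouts against 1138 and 1058 bp in WT. Ranks 279 (chromosome 4, 2178791 to 2180255) and 184 (chromosome 4, 727002 to 728213) were likewise strong in WT, with 6.54 and 8.46 at the first and 8.06 and 7.83 at the second in WT mt+ and WT mt−. Rank 53, at chromosome 6, 4588029 to 4589162, had 7.95 and 8.25 in dnmt1 mt+ and dnmt1 mt−, against 6.41 and 5.52 in WT mt+ and WT mt−. Among these 5 only rank 11 was weak in WT.

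**Figure D4:**
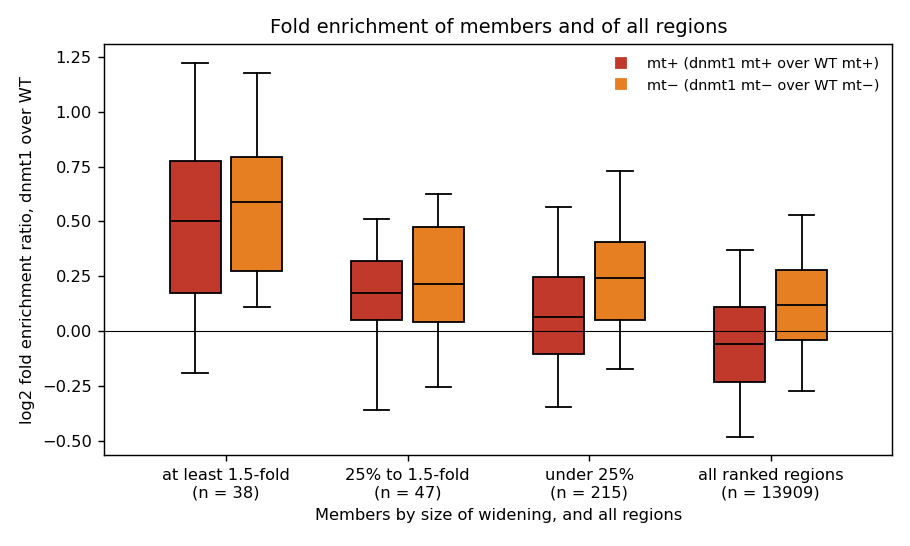
Boxes give the median and interquartile range of the log2 fold enrichment ratio, dnmt1 over WT, in each strain, with whiskers at the 5th and 95th percentiles, for widened regions by size and for all ranked regions. The medians are 0.50 (mt+) and 0.59 (mt−) for regions at or above 1.5-fold and -0.06 and 0.12 for all regions.

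All 17 chromosomes had widened regions, from 7 on chromosome 11 to 27 each on chromosomes 3 and 12. They were 2.16% of all ranked regions. As a share of a chromosome's ranked regions, chromosomes 15 (3.90%, 18 of 461) and 4 (3.48%, 16 of 460) led, and chromosomes 11 (1.36%, 7 of 513) and 8 (1.62%, 9 of 556) had the lowest shares. The regions at least 25% wider numbered 9 on chromosome 12 and 8 each on chromosomes 1 and 3, and 1 on chromosome 8. In the chromosome 6 window from 300 to 800 kb, which lies around the approximate place of the mating type locus, 3 of 67 ranked regions were widened. Within 50 kb of the first or last peak of a chromosome there were 3 of the 300 (1.0%), against 228 of all 13909 (1.64%), and none of the 85 at least 25% wider.

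The regions lay close together more often than ranked regions did in general. Another widened region lay within 50 kb of 122 of the 300 (40.7%, exact interval 35.1 to 46.5), and of 29 of the 38 at or above 1.5-fold. Of all ranked regions, 21.2% had a widened region that near. In the ranking of narrowed regions, 24% had a widened region within 50 kb. When regions with a neighbour within 1 kb were left out before ranking, the share was 30%.

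Windows of 200 kb held at most 6 widened regions, a number reached on chromosomes 1, 4 and 15. The window on chromosome 1, from 1067894 to 1255308, held 7 ranked regions, of which 6 were in the widened set (1.44-fold to 3.39-fold), and all 7 were wider in both knockouts than in either WT library. Median widths of the 7 were 812 bp in dnmt1 mt+ and 827 bp in dnmt1 mt−, against 318 bp in WT mt+ and 399 bp in WT mt−. The same window held 7 regions with a peak in both knockouts and in neither WT library, called gained regions below. In a stretch of chromosome 1 where WT had few and narrow peaks, both knockouts thus had wider and more numerous ones.

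The window on chromosome 7, from 3117782 to 3193004, was alike, with 5 of 7 ranked regions in the widened set, each at least 1.75-fold wider, and 3 gained regions. Median widths there were 826 bp in dnmt1 mt+ and 900 bp in dnmt1 mt−, against 354 bp in WT mt+ and 361 bp in WT mt−. On chromosome 9, from 4230901 to 4365202, all 5 ranked regions were in the widened set, 1.11-fold to 5.91-fold, beside 9 gained regions.

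The windows on chromosomes 4 and 15 held 6 widened regions each, among a larger number of ranked regions. On chromosome 4, from 727002 to 910043, they were 6 of 16 ranked regions, but 5 of the 6 were under 25% wider. On chromosome 15, from 2601175 to 2788508, they were 6 of 21, and 3 were at least 25% wider.

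Runs of at least 3 regions at least 25% wider, each at most 150 kb from the next, were then listed, a rule chosen after the values were seen. There were 6 runs, with 26 of the 85 regions. Besides the stretches of chromosomes 1 (6 regions) and 7 (5 regions), 1 run lay on chromosome 17 (6026250 to 6314198), with 5 such regions among 18 ranked and 8 gained regions, and 1 on chromosome 12 (6666318 to 6875086), with 4 among 10 ranked and 6 gained regions. Runs of 3 lay on chromosome 3 (7168143 to 7296644) and chromosome 15 (2601175 to 2677361), with 0 gained regions inside these spans. Gained regions lay outside them, 6451 bp from rank 12 at the start of the chromosome 3 run. The chromosome 15 window of up to 200 kb that starts with its run (2601175 to 2788508) held 2.

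Gained regions lay near widened regions more often than near ranked regions in general, although most widened regions had none within 50 kb. The median distance to the nearest gained region was 740396 bp for the 300, against 997557 bp over all ranked regions. It was 21426 bp for the 38 at or above 1.5-fold. A gained region lay within 50 kb of 61 of the 300 widened regions (20.3%, exact interval 15.9 to 25.3), against 562 of all 13909 (4.04%). The share was 52.6% (20 of 38) at or above 1.5-fold, 34% (16 of 47) 25% to 1.5-fold wider and 11.6% (25 of 215) under 25% wider. In the ranking of narrowed regions it was 2.33% (7 of 300, interval 0.943 to 4.75), and 0 of the 41 regions at least 20% narrower had a gained region within 50 kb (interval 0 to 8.60). Both intervals include the 4.04% of all ranked regions, so neither count is told apart from that share. Seen from the other side, 99 of the 160 gained regions on numbered chromosomes had a widened region within 50 kb, and 87 had one at least 25% wider. Of all ranked regions, 21.2% had another widened region that near. No such share was taken for regions at least 25% wider, so nothing is read from the 87. Gained regions also lay partly together, as with the 9 in the chromosome 9 window, so these counts are not of separate places. Gained and widened regions come from the same 4 libraries and the same contrast, so this describes where both lie and is no independent evidence for either.

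The share was lower at greater distance. Under 10 kb from a gained region, 35 of 143 ranked regions were widened (24.5%, exact interval 17.7 to 32.4) and 18 at least 25% wider (12.6%). From 10 to 50 kb the shares were 6.21% (26 of 419) and 4.30%, from 50 to 200 kb 2.21% (32 of 1447) and 0.691%, and at 200 kb or more 1.74% (207 of 11900) and 0.328%. Regions at least 20% narrower made up 0.311% of the regions at 200 kb or more, near the 0.328% for widening there. At these thresholds there were 36 wider and 0 narrower regions within 50 kb, 10 and 4 from 50 to 200 kb, and 39 and 37 at 200 kb or more. For narrowing, the exact intervals reached 2.55% under 10 kb and 0.877% from 10 to 50 kb, and so include its 0.311% at 200 kb or more. At least 1.5-fold wider were 14 regions under 10 kb, 6 from 10 to 50 kb, 9 from 50 to 200 kb and 9 at 200 kb or more, while 1 ranked region in all was at least 1.5-fold narrower. The median log2 width ratio of all ranked regions under 10 kb was 0.06 in both strains. Over all ranked regions it was -0.017 in the mt+ pair and 0.0022 in the mt− pair.

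**Figure D5:**
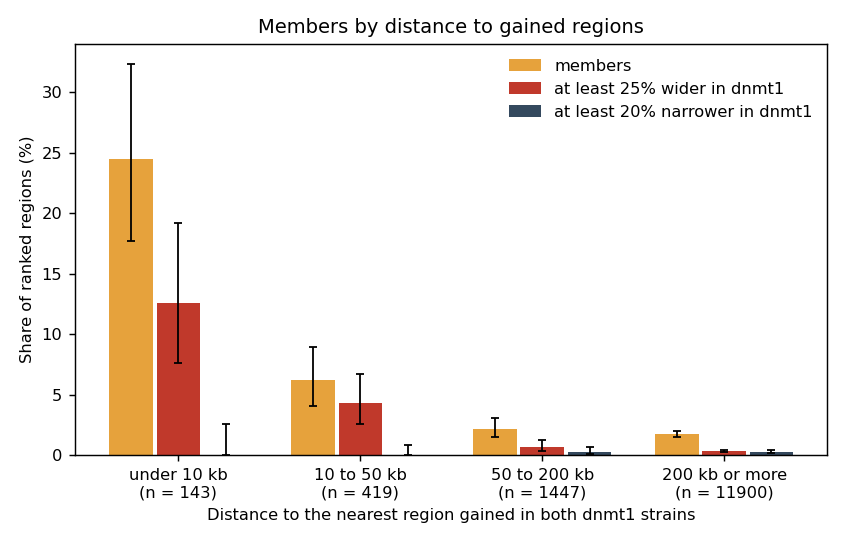
Share of ranked regions (y axis, %) that are widened, at least 25% wider or at least 20% narrower in both knockouts, by distance to the nearest gained region (x axis), with exact 95% binomial intervals (counting error only). The widened share is 24.5% under 10 kb and 1.74% at 200 kb or more. The narrowed share is 0% in both classes under 50 kb, with intervals that include its 0.311% at 200 kb or more.

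Among the 85 regions at least 25% wider, those near gained regions were the stronger ones in the knockouts. The 36 within 50 kb had a median lower log2 width ratio of 0.78, and their median percentile of −log10 q was 50.6 in dnmt1 mt+ and 47.6 in dnmt1 mt−, against 8.81 in WT mt+ and 10.7 in WT mt−. The 49 farther away had a median ratio of 0.45, and their median percentile was 9.19 in dnmt1 mt+ and 7.72 in dnmt1 mt−, against 5.0 in WT mt+ and 4.85 in WT mt−. The larger extension was on the same side in both strains in 30 of 34 near regions (88.2%, exact interval 72.5 to 96.7) and in 35 of 49 farther ones (71.4%, 56.7 to 83.4). Both dnmt1 fold enrichments exceeded both WT values in 29 of 36 near regions and 27 of 49 farther ones. The intervals of the same-side shares overlap, and all these values belong to the contrast that chose the regions. Ranked regions within 50 kb of a gained region that were not widened had median percentiles of 45.1 (dnmt1 mt+), 44.2 (dnmt1 mt−), 44.6 (WT mt+) and 44.9 (WT mt−).

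At the limit of the set the values on either side were nearly the same. The 5 regions just inside, ranks 296 to 300, were on chromosomes 8, 2, 11, 17 and 9, and each had a lower ratio of 1.10 or 1.11. The last, chromosome 9, 546715 to 547659, was 622 and 897 bp wide in dnmt1 mt+ and dnmt1 mt−, against 563 and 568 bp in WT mt+ and WT mt−. The first just outside, at chromosome 1, 6656762 to 6657176, was 327 and 415 bp wide in dnmt1 mt+ and dnmt1 mt−, against 296 and 302 bp in WT mt+ and WT mt−, and the next 4 were on chromosomes 10, 8, 1 and 8. A gain near the limit was thus a matter of 31 to 83 bp over both edges in the mt+ pair for 8 of these 10 regions, and of 79 to 329 bp in the mt− pair for all 10. Between libraries of 1 genotype, the distance between edges of the same region was averaged over its 2 edges. Its median over the 300 regions was 34 bp in the dnmt1 libraries and 33.5 bp in the WT libraries. This is a mean per edge, while the gains above sum both edges.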

How the data were processed

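H3K27ac ChIP-seq peak lists of 4 libraries were used, 1 per group. Per the submitters' processing notes, MACS2 2.2.7.1, Bowtie2 2.4.2, deepTools 3.5.1, Picard and Trim Galore 0.6.7 were used. Options are not stated, and the genome build is not given in the sources used here. No genome of that build was at hand, so no gene was assigned and no sequence is shown. The authors deposited 1 narrowPeak list per library, with positions and summits, a score (10 times −log10 q), the fold enrichment ratio, the −log10 p-value and the −log10 q-value. The deposited lists give no counts, so depth is unknown. Coordinates are given from 1.

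Widths are end minus start. Medians, shares and exact 95% Clopper-Pearson intervals were computed in Python 3.11.15 (numpy 2.4.6, pandas 2.3.3, scipy 1.17.1, matplotlib 3.10.9), and the ranking was tested on simulated data. Regions named are the 20 leading, 5 on either side of the limit, and 5 each by gain in bp, dnmt1 fold enrichment and fold enrichment ratio, with the 5 densest windows of 200 kb. The rule and the lists were chosen with earlier results of these data known; the classes at 1.5 and 2-fold, the narrowed ranking and the runs were added later. Alternatives were centred ratios, −log10 q of at least 10, lists of equal length, overlap of at least 50%, ranking in bp, 150 or 600 regions, peaks of at least 400 bp and no neighbour within 1 kb.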

Additional observations from a re-analysis of the deposited data

Results flagged for a closer look

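The median ratio over all 13909 ranked regions, dnmt1 over WT, had opposite signs in the 2 strains (mt+ pair: CC-5155, mt− pair: CC-5325). For width it was -0.017 in the mt+ pair and 0.0022 in the mt− pair on the log2 scale, and for fold enrichment -0.061 in the mt+ pair and 0.12 in the mt− pair. These differences between strains were not tested.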

How the results depend on the processing

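Of 64 alternative values for 8 results, 50 stayed close to the value reported, 12 moved and 2 changed sign. Close was a wide class. For limits and counts it meant within 1.5-fold. The 85 regions at least 25% wider became 60 with −log10 q of at least 10, which counted as close. So did 62 with no other region within 1 kb. For the median lower log2 fold enrichment ratio, close meant within 0.25. A value of 0.12 with 150 regions thus counted as close to 0.04. The value at the limit of the set depends on its size: the lower log2 ratio was 0.22 with 150 regions and 0.094 with 600 within strains, and 0.21 and 0.0903 in the crossed pairs. With peaks of at least 400 bp in all lists, 36 regions were at least 25% wider in both knockouts and 38 in both crossed pairs, 31.7% of the 300 then ranked highest had another within 50 kb, and 15% had a gained region within 50 kb. With 600 regions 51.5% had another within 50 kb, and 30% did with no other region within 1 kb. A gained region lay within 50 kb of 31.3% with 150 regions and of 13.3% with 600. The median lower log2 fold enrichment ratio was -0.0073 with 600 regions and -4.6e-05 with peaks of at least 400 bp. The cause of these changes was not tested. The limits and the counts of regions at least 25% wider have no value under ranking in bp, and the counts of regions at least 25% wider do not depend on the number of regions. No paired analysis was possible because the results come from no test; the values already are ratios within strains. Unknown depth limits every comparison of width between lists.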
